A study of Mus musculus with 48 samples.

Results

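RNA polymerase II is built from a large catalytic subunit, Polr2a, and a set of smaller subunits. The genes described here are Polr2a, Polr2b, Polr2c, Polr2d, Polr2e, Polr2f, Polr2g, Polr2h, Polr2i and Polr2k, 10 of the 25528 genes in the deposited count table, taken by symbol. They were chosen by measured values: the low Polr2a level of etoposide-treated E6l2-KO cells in these same libraries led to the list. Comparisons that use the E6l2-KO libraries, and the levels over all 16 groups, are therefore given as values with no test.

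The samples were bulk RNA-seq libraries of mouse Cas9-Hoxb8 cells, a cell line labelled as granulocyte-monocyte progenitors (GMP), with 3 libraries in each of 16 groups. Transformed clones numbered 7 and 12 carried the E6l2-Trp53-KO genotype and clones 4 and 6 the Trp53-KO genotype; the labels name them etoposide transformed, and each was sampled without drug pre-treatment. Untransformed cells were E6l2-Trp53-KO, Trp53-KO, E6l2-KO or wildtype, and each genotype was treated with etoposide, held at high cell density (HCD) or treated with the solvent DMSO. HCD cells were seeded at 4 M cells per well and the others at 0.25 M, and all untransformed cells were collected after 48 h. Every group shares the Cas9-Hoxb8 background, and E6l2 is the labels' short form for the gene that the study's title gives as ERCC6L2. The sources used here give neither the etoposide concentration nor whether a knockout line is 1 clone or a pool, so genotype and edited line cannot be told apart. Each transformed group is 1 clone, and nothing states that libraries of a group came from separate cultures, so p-values measure the spread between these libraries.

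The polymerase reads protein-coding genes in every cell. Polr2a and Polr2b together form the active centre, and the tail of Polr2a, the C-terminal domain, is phosphorylated as transcription starts and proceeds. Polr2c belongs to the platform on which the enzyme assembles, Polr2d and Polr2g form a stalk, Polr2i takes part in start-site choice and proofreading, and Polr2e, Polr2f, Polr2h and Polr2k are also built into RNA polymerases I and III. Etoposide traps topoisomerase II on broken DNA, and p53, the product of Trp53, is a main transcription factor of the response to such breaks.

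The libraries held 22.5 to 114.4 M (mega) counts (median 27.4 M), the untransformed ones 22.5 to 40.9 M, and no member fell below 509 counts in any library. Trp53 stood at 25.3 ± 0.585 counts per M counts (CPM, TMM-scaled) in E6l2-Trp53-KO DMSO cells and 28.3 ± 0.614 CPM in Trp53-KO DMSO cells, against 76.0 ± 3.35 CPM in wildtype DMSO cells (SD, n = 3 each). Ercc6l2 stood at 27.2 ± 1.13 CPM in E6l2-KO DMSO cells, against 30.1 ± 0.480 CPM in wildtype DMSO cells, so its level does not check the E6l2 labels. All 8 GMP markers examined averaged over 1 CPM in every untransformed group. Of the libraries that stood apart, E6l2-Trp53-KO Etoposide replicate 3 had 40.9 M counts and clone 4 replicate 3 had 68.4 M. Clone 12 replicate 3 had 114.4 M and held 0.817% of its counts on TEC genes (GENCODE's loci that still await experimental evidence), against 0.263% in each of the other libraries of clone 12. In bulk libraries, fewer cells of a type and less RNA per cell cannot be told apart.

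The promoters of Polr2a, Polr2f and Polr2i are shown because, of the 10 genes, these had the lowest and the 2 highest log2 changes with etoposide in wildtype cells. Each is the 250 bases before the RefSeq transcription start, build GRCm38.p6, written 5′ to 3′ on the gene's strand. Capitals mark the TATA box letters TATAAA. They also mark the GC box letters GGGCGG and the CCAAT box. A match to the ETS factor letters CCGGAAG is marked likewise, and all were searched on both strands. The windows lie at chr11:69758634-69758883 (minus strand) for Polr2a, chr15:79141075-79141324 (plus strand) for Polr2f and chr7:30231824-30232073 (plus strand) for Polr2i. GENCODE M21 places the start of the Polr2f gene at 79141009, so by that annotation its window lies inside the gene. It places the start of the Polr2i gene at 30231948, within the window shown.
Polr2a: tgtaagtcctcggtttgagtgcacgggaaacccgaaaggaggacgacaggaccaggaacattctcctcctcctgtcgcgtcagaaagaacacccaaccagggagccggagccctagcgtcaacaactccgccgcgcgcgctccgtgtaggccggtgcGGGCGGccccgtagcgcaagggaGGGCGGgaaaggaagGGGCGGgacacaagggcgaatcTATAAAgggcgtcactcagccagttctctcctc
Polr2f: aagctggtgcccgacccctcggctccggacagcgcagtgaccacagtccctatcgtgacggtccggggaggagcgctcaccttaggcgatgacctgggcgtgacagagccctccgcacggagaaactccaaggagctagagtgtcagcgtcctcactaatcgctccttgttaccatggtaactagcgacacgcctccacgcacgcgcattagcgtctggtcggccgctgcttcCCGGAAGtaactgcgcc
Polr2i: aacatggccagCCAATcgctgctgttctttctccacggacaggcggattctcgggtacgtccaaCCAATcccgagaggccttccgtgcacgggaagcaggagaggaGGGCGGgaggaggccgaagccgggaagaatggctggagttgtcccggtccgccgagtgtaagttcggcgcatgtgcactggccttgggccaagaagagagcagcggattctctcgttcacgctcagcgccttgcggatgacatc
Polr2a held GGGCGG at positions -93, -70 and -55 and TATAAA at -33, counted back from the start. In Polr2f the letters CCGGAAG began at -17, and Polr2i held CCAAT at -239 and -186 and GGGCGG at -144. Among 32851 RefSeq mouse promoters of this length, 12.4% held the TATA box letters, 32.7% those of the GC box, 33.8% those of the CCAAT box and 6.91% those of the ETS site on either strand. Of the 10 members, 7 had a promoter in the table, with 8 windows in all. GGGCGG was in 6 of the 8 windows, TATAAA in those of Polr2a and Polr2c, and the E box letters CACGTG, in 6.02% of all promoters, in none. GC made up 62.8% of the Polr2a window, against a median of 52.4% over all promoters. A match of letters is a description of the window and shows no binding.

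Polr2a had the longest transcript of the 10 and the lowest level per length. The transcript taken for each gene was the annotated one with the longest coding sequence. For Polr2a it is 6740 bases in 29 exons on chromosome 11, and the other 9 range over 601 bases (Polr2k) to 4145 bases (Polr2b). Mean CPM per kilobase over the 48 libraries was 8.99 for Polr2a, 21.7 for Polr2c and 30.8 for Polr2b, and between 43.0 (Polr2d) and 114.5 (Polr2g) for the other 7. Lengths are of GENCODE M21 transcripts, levels per kilobase depend on the transcript taken, and the authors' own gene models are unknown here.

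Over the 16 groups Polr2a had a high range and a low one. Its highest group mean was 79.5 ± 16.8 CPM in E6l2-Trp53-KO Etoposide cells, followed by 72.7 ± 4.03 CPM in wildtype DMSO cells and 71.6 ± 11.1 CPM in E6l2-Trp53-KO HCD cells (SD, n = 3 each). The next 11 group means, down to 51.6 ± 5.004 CPM in Trp53-KO clone 6, each overlapped their neighbours in the order. Only below clone 6 was there a gap: the lowest groups were E6l2-KO Etoposide at 29.5 ± 0.568 CPM and wildtype Etoposide at 28.3 ± 2.77 CPM, which overlapped each other. The highest group was 2.81 times the lowest. Of the other 9, Polr2b, Polr2c, Polr2d, Polr2e, Polr2f, Polr2h, Polr2i and Polr2k had their highest group mean in an etoposide group (wildtype or E6l2-KO) and their lowest in a transformed Trp53-KO clone, with spans between 1.58-fold (Polr2b) and 3.31-fold (Polr2e). The highest groups of Polr2b and Polr2c overlapped groups without etoposide, and the lowest groups of Polr2b and Polr2h overlapped an E6l2-Trp53-KO clone. The share of all genes with this order was not counted, so nothing is read from it. Polr2g ran the other way in the clones, with its highest mean in clone 7 (130 CPM) and a span of 1.49-fold.

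Set against the geometric mean of the other 9, Polr2a separated the same 2 groups. The log2 ratio was -1.57, -1.61 and -1.52 in E6l2-KO Etoposide cells and -1.77, -1.46 and -1.72 in wildtype Etoposide cells. In the other 14 groups the mean ratio ran between -0.32 (E6l2-Trp53-KO DMSO) and 0.60 (clone 4). The lowest library outside the 2 etoposide groups stood at -0.45, and the plot of Polr2a by library shows an empty band beneath it.

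**Figure D1:**
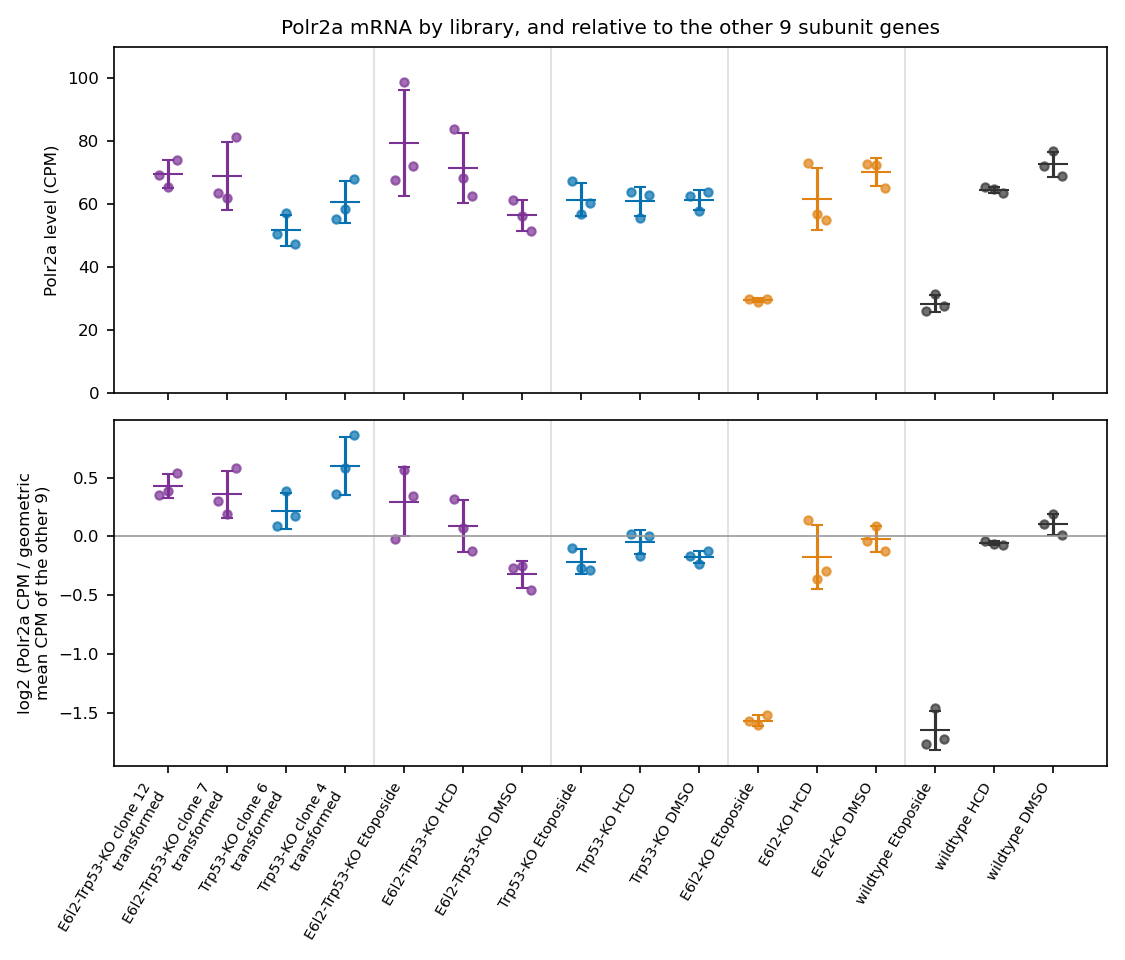
Upper panel, Polr2a level in CPM; lower panel, log2 of Polr2a over the geometric mean of the other 9 subunit genes, for 16 groups of 3 libraries (points are libraries, bars mean ± SD). Polr2a stood at 28.3 CPM in wildtype Etoposide and 29.5 CPM in E6l2-KO Etoposide cells, and at 51.6 CPM or more in the other groups.

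Etoposide lowered Polr2a in wildtype cells, while 8 of the 9 smaller subunit genes rose. Polr2a had 25.9, 31.4 and 27.7 CPM in wildtype Etoposide cells, against 72.1, 77.0 and 69.0 CPM in wildtype DMSO cells. The groups lay far apart, and every treated library was far below every control. The change was 2.56-fold lower (log2 -1.36, SE 0.114, edgeR quasi-likelihood adjusted p = 1.3e-10), and 5.47% of all tested genes had a change as negative or more so.

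Polr2b, the partner of Polr2a in the active centre, had 158, 145 and 147.5 CPM in wildtype Etoposide cells, against 140.5, 141 and 133 CPM in wildtype DMSO cells. Its groups did not overlap, but its log2 change of 0.12 (SE 0.0527) missed the threshold of 0.05 (edgeR adjusted p = 0.0596). The other 8 smaller subunit genes all passed it as higher, where 28.6% of all tested genes were called higher, 17.3% lower and 45.9% either way. The median log2 change of the 9 was 0.36, against 0.06 over all genes.

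The platform gene Polr2c had 102, 100.5 and 113 CPM in wildtype Etoposide cells, against 82.7, 81.6 and 90.3 CPM in wildtype DMSO cells (log2 0.31, SE 0.0543, edgeR adjusted p = 2.13e-05). Both stalk genes rose: Polr2d by a log2 change of 0.24 (SE 0.0695, edgeR adjusted p = 0.00523) and Polr2g by 0.36 (SE 0.0608, edgeR adjusted p = 1.42e-05). Among the subunits shared with polymerases I and III, the log2 changes were 0.61 for Polr2f, 0.49 for Polr2k, 0.38 for Polr2e and 0.35 for Polr2h. Polr2f had 132, 137 and 138 CPM in wildtype Etoposide cells, against 84.9, 87.4 and 93.3 CPM in wildtype DMSO cells. Polr2i rose most: 65.4, 68.7 and 74.9 CPM in wildtype Etoposide cells, against 44.3, 44.4 and 44.1 CPM in wildtype DMSO cells (log2 0.66, SE 0.117, edgeR adjusted p = 2.72e-05). No treated library of any of the 9 reached down into the range of its controls. The share of all genes without such overlap was not counted, so nothing is read from this.

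Transcript length and GC moved with this response. Over 13990 genes, the log2 change in wildtype cells had a Spearman rho of -0.33 with transcript length and 0.36 with GC share (across genes, which are not independent). With a per-library offset for these 2 properties, Polr2a kept its fall (log2 -1.43, edgeR adjusted p = 5.9e-11). Under that offset 5 of the 9 smaller subunit genes were called higher, Polr2b (0.19), Polr2c (0.20), Polr2f (0.25), Polr2i (0.29) and Polr2k (0.65), while Polr2d, Polr2e, Polr2g and Polr2h lost their call, at 0.04, 0.06, 0.12 and 0.03. TEC genes held 0.168% ± 0.0029 of counts in wildtype Etoposide libraries, against 0.339% ± 0.0352 in wildtype DMSO libraries, and cytosolic ribosomal protein genes 17.6% ± 0.250 against 14.6% ± 0.153 (SD, n = 3 each). The part of these shares in the result was not tested. With scaling computed over the 36 untransformed libraries alone, 2861 genes were called higher and 2946 lower, in place of 4013 and 2424, and the same 8 smaller subunit genes were still called higher.

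E6l2-KO cells, the libraries whose values led to the choice of these genes, had the same arrangement. Polr2a had 29.9, 28.8 and 29.7 CPM in E6l2-KO Etoposide cells, against 72.8, 72.6 and 65.0 CPM in E6l2-KO DMSO cells, a log2 difference of -1.25. All 9 smaller subunit genes were higher with etoposide and did not overlap their controls, with log2 differences between 0.10 (Polr2b) and 0.42 (Polr2i) and a median of 0.33. In that comparison 38.6% of all tested genes were called. The share of all genes without overlap was not counted, and nothing is read from the members' count. TEC genes held 0.185% ± 0.00784 of counts in E6l2-KO Etoposide libraries, against 0.292% ± 0.0420 in E6l2-KO DMSO libraries.

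In Trp53-KO cells etoposide changed none of the 10 genes beyond the threshold. Polr2a had 67.2, 56.8 and 60.2 CPM in Trp53-KO Etoposide cells, against 62.5, 57.9 and 63.7 CPM in Trp53-KO DMSO cells, and the ranges overlapped. Its log2 change was 0.00 (SE 0.108, edgeR adjusted p = 1). Of all 14011 genes tested, 0 passed (0% called), and 479 had an unadjusted p under 0.05. DESeq2 also called 0, while 12 genes were called with no filter on low counts and 1 with these 2 groups fitted alone. The log2 changes of the 9 smaller subunit genes lay between -0.02 (Polr2b) and 0.13 (Polr2k). TEC genes held 0.254% ± 0.0107 of counts in Trp53-KO Etoposide libraries, against 0.248% ± 0.0155 in Trp53-KO DMSO libraries.

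The difference between the 2 genotypes was itself tested. The response of Polr2a to etoposide was 1.36 higher on the log2 scale in Trp53-KO than in wildtype cells (SE 0.157, edgeR interaction adjusted p = 6.97e-07). Of the smaller subunit genes, 7 had a lower response in Trp53-KO cells, where 29.9% of all genes were called (10.6% higher and 19.3% lower). The differences ran between -0.27 (Polr2g) and -0.59 (Polr2f, Polr2i), and Polr2b (-0.14, edgeR adjusted p = 0.15) and Polr2d (-0.25, edgeR adjusted p = 0.0544) were not called. With scaling over the 36 libraries alone, or under the offset for length and GC, 4 of the 9 were called. That rescaling also turned the split over all genes to 1693 higher and 1561 lower, in place of 1491 and 2705.

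With E6l2 and Trp53 both knocked out, Polr2a was higher with etoposide. It had 67.6, 98.7 and 72.2 CPM in E6l2-Trp53-KO Etoposide cells, against 61.4, 56.2 and 51.6 CPM in E6l2-Trp53-KO DMSO cells. The treated libraries were all above the controls but spread widely, replicate 2 lying well above the others. The log2 change was 0.49 (SE 0.107, edgeR adjusted p = 0.00245); without replicate 2 it was 0.31 (edgeR adjusted p = 0.024), and without replicate 3 it was 0.56. Fitted on these 6 libraries alone, it missed the threshold (edgeR adjusted p = 0.117).

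Of the smaller subunit genes in this comparison, 2 fell and 0 rose, where 10% of all genes were called lower, 5.26% higher and 15.3% either way. Polr2e had 49.4, 52.0 and 36.25 CPM in E6l2-Trp53-KO Etoposide cells, against 60.4, 54.0 and 59.1 CPM in E6l2-Trp53-KO DMSO cells (log2 -0.34, SE 0.0764, edgeR adjusted p = 0.00305). Polr2c changed by -0.21 (SE 0.0539, edgeR adjusted p = 0.00815). Both calls rest on replicate 3: without it 0 of the 9 were called, and without replicate 2, 4 were. Against Trp53-KO cells, the response of Polr2a differed by 0.49 (SE 0.152), which the interaction test did not call (edgeR adjusted p = 0.176), and 0 of the 9 differed, where 0.157% of genes were called. At an unadjusted p under 0.05 there were 2051 genes in that test.

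**Figure D2:**
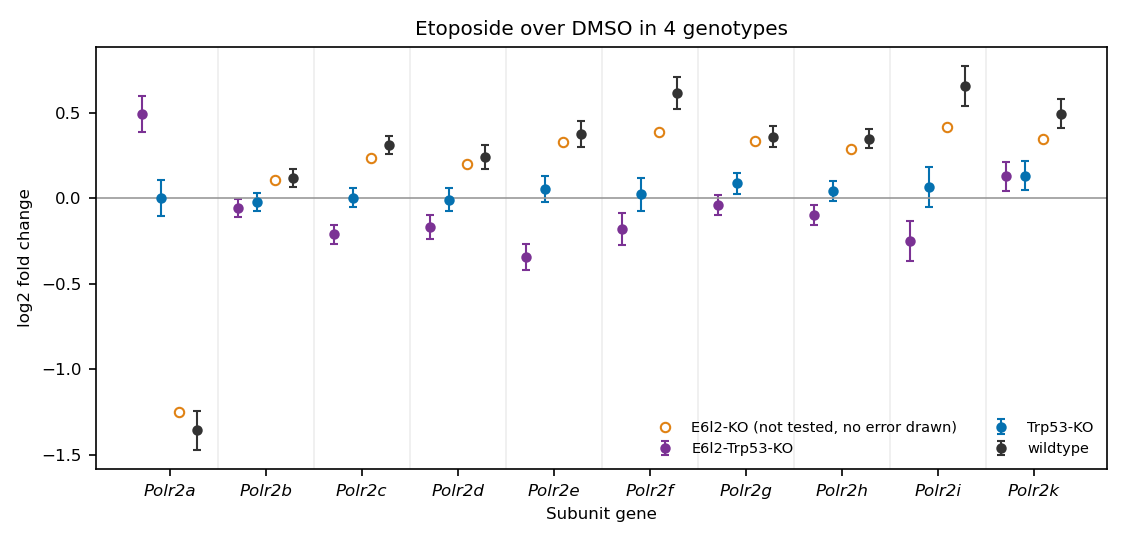
Log2 fold change of each subunit gene, etoposide over DMSO, in E6l2-Trp53-KO, Trp53-KO, E6l2-KO and wildtype cells (3 libraries a group; bars are ± 1 SE of the edgeR fit, none drawn for E6l2-KO, which was not tested). Polr2a lay at -1.36 in wildtype and -1.25 in E6l2-KO cells, at 0.00 in Trp53-KO cells and at 0.49 in E6l2-Trp53-KO cells.

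Other genes of the transcription machinery were read from 10 lists, in wildtype cells with etoposide. Polr2l, Polr2j and Polr2m, the other polymerase II genes, all rose (log2 0.69, 0.48 and 0.19). Of the 7 polymerase I subunit genes tested, 4 rose, led by Polr1h (0.45) and Polr1d (0.43), and of 10 for polymerase III 3 rose. Over all genes 28.6% were called higher and 17.3% lower, and the polymerase III share is near that background. Of 31 general transcription factor genes, which place the polymerase at the start site, 15 rose and 0 fell; Taf10 changed by 0.52 and Gtf2h5, of the TFIIH complex, by 0.45. Mediator, the bridge between activators and polymerase, had 15 of 30 genes higher and 1 lower, led by Med29 (0.55), Med31 (0.47) and Med11 (0.45). Of 11 factors that assemble the polymerase 8 rose, among them Pih1d1 (0.36), Gpn2 (0.27) and Ruvbl1 (0.25).

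Of 25 pausing and elongation genes 7 rose and 3 fell, among them Cdc73, of the PAF1 complex, with a log2 change of -0.71, and Ccnt2, a cyclin partner of Cdk9, with -0.56. Of 14 kinases and phosphatases of the C-terminal domain 6 rose and 1 fell; Ssu72, a phosphatase, changed by 0.49 and Ccnk, the cyclin of Cdk12, by -0.40. Integrator had 3 of 14 genes higher. For Integrator and for the pausing and elongation genes, the share called higher is near or under the 28.6% over all genes. List counts under the length and GC offset are not given here. Among 13 genes of transcription-coupled repair and polymerase ubiquitination 5 rose and 1 fell, led by Elob (0.63), Elof1 (0.45) and Eloc (0.38). List medians ran between 0.05 (Integrator) and 0.48 (the 3 other polymerase II genes), beside 0.06 over all genes, and every change named was called by edgeR. In Trp53-KO cells 0 genes of these lists were called.

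High cell density moved the subunit genes differently, with the 2 stalk genes apart. Polr2d had 35.6, 38.2 and 39.1 CPM in wildtype HCD cells, against 46.5, 47.5 and 51.1 CPM in wildtype DMSO cells. It had 33.5, 36.1 and 36.9 CPM in Trp53-KO HCD cells, against 50.2, 48.6 and 51.5 CPM in Trp53-KO DMSO cells. In E6l2-Trp53-KO cells it had 41.1, 34.4 and 36.2 CPM at HCD, against 52.2, 51.7 and 55.4 CPM with DMSO. The groups did not overlap in any of the 3 genotypes.

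Its log2 change at HCD was -0.51 in E6l2-Trp53-KO cells (SE 0.0708, edgeR adjusted p = 3.36e-07), -0.50 in Trp53-KO cells (SE 0.0717, edgeR adjusted p = 7.32e-07) and -0.36 in wildtype cells (SE 0.0707, edgeR adjusted p = 7.55e-05). E6l2-KO cells had 35.0, 40.0 and 40.7 CPM at HCD, against 56.2, 48.9 and 52.6 CPM with DMSO, a log2 difference of -0.44, in a comparison where 40.8% of all genes were called. Polr2g, its partner in the stalk, was not called in any tested genotype, with log2 changes of 0.05, 0.02 and 0.12 in E6l2-Trp53-KO, Trp53-KO and wildtype cells. The log2 ratio of Polr2g over Polr2d averaged 1.31 to 1.40 in the 4 HCD groups, against 0.75 to 0.91 in the 4 DMSO groups.

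Polr2b and Polr2h also fell at HCD in the tested genotypes. Polr2b changed by -0.22 in E6l2-Trp53-KO, -0.27 in Trp53-KO and -0.17 in wildtype cells (edgeR adjusted p = 0.000746, 7.98e-05 and 0.0096). Polr2h changed by -0.27 in E6l2-Trp53-KO, -0.23 in Trp53-KO and -0.14 in wildtype cells (edgeR adjusted p = 0.000235, 0.0014 and 0.0466). The wildtype call of Polr2h was lost with RLE scaling (edgeR adjusted p = 0.0661) and without a filter on low counts (edgeR adjusted p = 0.0723). That of Polr2b was lost under the length and GC offset (log2 -0.09, edgeR adjusted p = 0.0734). Polr2f fell in Trp53-KO cells (-0.32, edgeR adjusted p = 0.00694), and Polr2c and Polr2e rose in wildtype cells (0.17 and 0.33), though both lost that call under the length and GC offset. In all, 3 of the 9 fell and 0 rose in E6l2-Trp53-KO cells, where 22.4% of all genes were called lower, 24.4% higher and 46.8% either way. In Trp53-KO cells 4 fell and 0 rose, against 22.1% of all genes lower, 23.1% higher and 45.2% either way. In wildtype cells 3 fell and 2 rose, against 21.7% lower, 26.7% higher and 48.4% either way.

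Polr2a itself was called at HCD in 1 genotype. It had 84.1, 68.2 and 62.6 CPM in E6l2-Trp53-KO HCD cells, against 61.4, 56.2 and 51.6 CPM in E6l2-Trp53-KO DMSO cells. These groups did not overlap (log2 0.35, SE 0.108, edgeR adjusted p = 0.00767), but without HCD replicate 1 the change was 0.22 and not called (edgeR adjusted p = 0.129), and without DMSO replicate 3 it was 0.29 and not called (edgeR adjusted p = 0.055). The log2 change was -0.01 in Trp53-KO cells (edgeR adjusted p = 0.949) and -0.17 in wildtype cells (edgeR adjusted p = 0.186). No response to HCD of any of the 10 genes differed between genotypes in the interaction tests, which called 0.328% of genes for E6l2-Trp53-KO against Trp53-KO and 0.25% for Trp53-KO against wildtype. Unadjusted p-values under 0.05 numbered 1116 and 2331 genes in those tests.

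**Figure D3:**
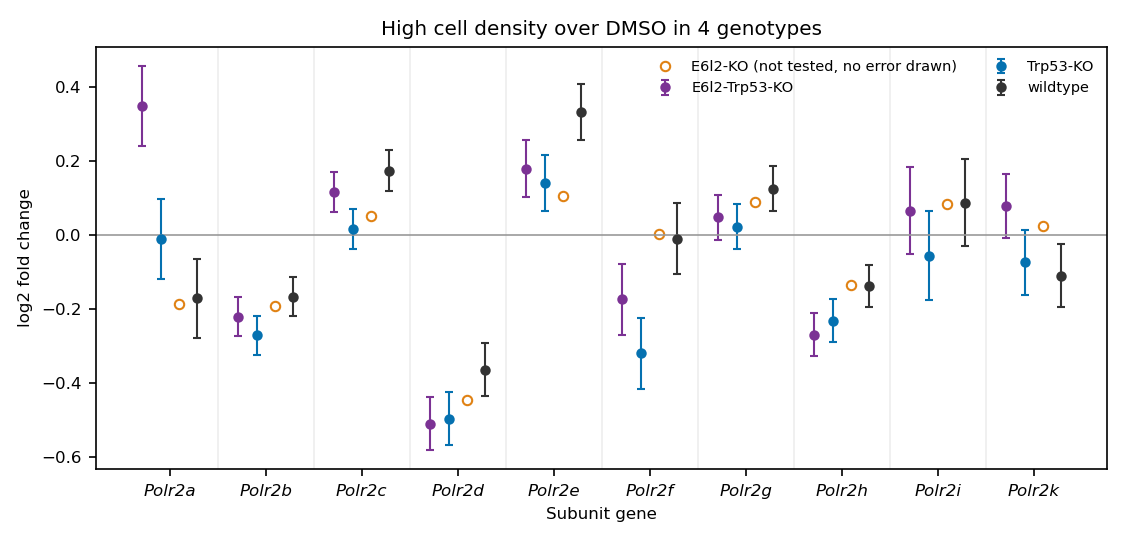
Log2 fold change of each subunit gene, high cell density over DMSO, in E6l2-Trp53-KO, Trp53-KO, E6l2-KO and wildtype cells (3 libraries a group; bars are ± 1 SE of the edgeR fit, none drawn for E6l2-KO, which was not tested). Polr2d had the lowest value in each genotype, between -0.51 and -0.36, and Polr2b and Polr2h were also below 0 in each.

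In solvent alone Polr2a was lower in E6l2-Trp53-KO than in wildtype cells. It had 61.4, 56.2 and 51.6 CPM in E6l2-Trp53-KO DMSO cells, against 72.1, 77.0 and 69.0 CPM in wildtype DMSO cells (log2 -0.37, SE 0.107, edgeR adjusted p = 0.00915). The call was lost without wildtype replicate 2 (edgeR adjusted p = 0.0529) or E6l2-Trp53-KO replicate 3 (edgeR adjusted p = 0.0633). In the same comparison Polr2c rose (log2 0.22, edgeR adjusted p = 0.00215) and the other 8 were not called, where 30.2% of all genes were. Trp53-KO cells had 62.5, 57.9 and 63.7 CPM of Polr2a, below each of the wildtype libraries, with a log2 change of -0.24 that was not called (edgeR adjusted p = 0.139; 11.2% of genes called). It was called when these 2 groups were fitted alone (edgeR adjusted p = 0.00422) or with no filter on low counts (edgeR adjusted p = 0.0247). Between E6l2-Trp53-KO and Trp53-KO DMSO cells 0 of the 10 were called, where 14.9% of genes were, with 3656 genes at an unadjusted p under 0.05. Polr2a differed by -0.05 on the log2 scale between E6l2-KO and wildtype DMSO cells, a value without a test, and 4.4% of genes were called there.

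In the transformed clones Polr2b, Polr2c, Polr2d, Polr2e, Polr2f and Polr2h fell and Polr2g rose in all 4, and Polr2a was called in 3 of the 4. Most genes were called there: 41.2% of all genes higher and 38.3% lower in clone 12, 40.6% and 38.9% in clone 7, 39% and 38.3% in clone 6, and 41.3% and 39.2% in clone 4. Polr2g had 122, 116 and 124 CPM in clone 12 and 125.5, 132 and 133 CPM in clone 7, against 92.5, 85.6 and 89.4 CPM in E6l2-Trp53-KO DMSO cells. It had 127.5, 123 and 109.6 CPM in clone 6 and 114.5, 104 and 100.1 CPM in clone 4, against 89.2, 88.5 and 87.4 CPM in Trp53-KO DMSO cells. Every clone library was above every DMSO library.

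The log2 change of Polr2g was 0.44 in clone 12, 0.54 in clone 7, 0.44 in clone 6 and 0.26 in clone 4 (edgeR adjusted p = 1.71e-07, 6.65e-09, 2.24e-07 and 0.000183). Clones of 1 genotype share the same DMSO libraries, so these values are not independent of each other. Polr2d, the other stalk gene, changed by -0.53 in clones 12 and 7, -0.71 in clone 6 and -0.94 in clone 4. The log2 ratio of Polr2g over Polr2d averaged 1.72 in clone 12, 1.83 in clone 7, 1.97 in clone 6 and 2.02 in clone 4, against 0.75 in E6l2-Trp53-KO DMSO and 0.82 in Trp53-KO DMSO cells.

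Of the shared subunits, Polr2e, Polr2f and Polr2h fell in every clone. Polr2h changed by -1.01 in clone 12, -0.97 in clone 7, -0.96 in clone 6 and -1.10 in clone 4, a similar size in each. Polr2e had 43.7, 42.1 and 47.3 CPM in clone 12 and 42.3, 42.7 and 42.5 CPM in clone 7, against 60.4, 54.0 and 59.1 CPM in E6l2-Trp53-KO DMSO cells. It had 30.5, 29.9 and 29.2 CPM in clone 6 and 29.0, 22.4 and 22.05 CPM in clone 4, against 65.8, 58.7 and 65.7 CPM in Trp53-KO DMSO cells. Its log2 change was thus -0.37 and -0.44 in clones 12 and 7 and -1.09 and -1.38 in clones 6 and 4, a difference between genotypes that was not tested.

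Polr2c and Polr2f fell by log2 changes between -0.78 and -1.18 in every clone, and Polr2b by between -0.54 and -0.61. Polr2i and Polr2k were not called in clones 12 and 7 (-0.09 and 0.11 for Polr2i, -0.08 and 0.09 for Polr2k). Polr2k fell in clones 6 and 4 (-0.69 and -0.78) and Polr2i likewise (-0.24 and -0.48). The difference between clones was not tested. The clone 6 call of Polr2i was lost under RLE scaling (log2 -0.21, edgeR adjusted p = 0.0623) and without Trp53-KO DMSO replicate 1 or clone 6 replicate 2 or 3 (edgeR adjusted p up to 0.146). In all, 7 of the 9 were called in clone 12, 7 in clone 7, 9 in clone 6 and 9 in clone 4, where 79.5%, 79.5%, 77.4% and 80.5% of all genes were called. These shares are near or above the background, and the same 7 were called in clone 12 and all 9 in clone 4 without replicate 3 of each, with log2 changes of -0.99 (Polr2h) to 0.42 (Polr2g) in clone 12.

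Polr2a had 69.2, 65.5 and 74.1 CPM in clone 12 and 63.7, 62.0 and 81.3 CPM in clone 7, against 61.4, 56.2 and 51.6 CPM in E6l2-Trp53-KO DMSO cells. The log2 change was 0.31 in clone 12 (SE 0.0928, edgeR adjusted p = 0.00431; 0.26 without its replicate 3) and 0.30 in clone 7 (SE 0.0940, edgeR adjusted p = 0.00662). Without clone 7 replicate 3, the change in clone 7 was 0.16 and not called (edgeR adjusted p = 0.112). Clone 6 had 50.4, 57.1 and 47.4 CPM and clone 4 had 55.2, 58.5 and 68.0 CPM, against 62.5, 57.9 and 63.7 CPM in Trp53-KO DMSO cells. The change was -0.25 in clone 6 (edgeR adjusted p = 0.0226), a call lost when any of 4 libraries was left out (log2 -0.24 to -0.19), and -0.01 in clone 4 (edgeR adjusted p = 0.92). Without clone 4 replicate 3, the value in clone 4 was -0.11 (edgeR adjusted p = 0.312).

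Cell-type markers moved with transformation. The summed level of 7 mast cell and basophil genes was 34255 to 38632 CPM in clones 12 and 7, against 2260 to 2274 CPM in E6l2-Trp53-KO DMSO cells, and 42906 to 50056 CPM in clones 6 and 4, against 1700 to 1881 CPM in Trp53-KO DMSO cells. All 7 were detected in the clones, and 1 of them, Fcer1a, was at 0 in every untransformed group. Cpa3 made up most of the sum in the clones. Its highest group mean was 42162 CPM, and that of Fcer1a, the next of the 7, was 2483 CPM. The summed level of 5 erythroid and megakaryocyte genes was higher too. It was 390 to 421 CPM in clones 12 and 7, against 140 to 150 CPM in E6l2-Trp53-KO DMSO cells. In clones 6 and 4 it was 613 to 730 CPM, against 72.4 to 87.0 CPM in Trp53-KO DMSO cells. The 8 GMP genes summed to 4880 to 5630 CPM in the clones, against 6386 to 8446 CPM in the DMSO cells of both genotypes, and none was at 0. That sum was carried by Ctsg, Kit and Cd34, and Kit rose. Kit averaged 2600, 2472, 2427 and 2744 CPM in clones 12, 7, 6 and 4. It stood at 344 CPM in E6l2-Trp53-KO DMSO and 311 CPM in Trp53-KO DMSO cells. Prtn3 averaged 27.1, 2.69, 1.96 and 2.79 CPM in the clones in that order, against 216 and 355 CPM in those DMSO groups. Ms4a3 averaged 6.51, 1.56, 1.77 and 3.35 CPM, against 265 and 574 CPM. Elane in clone 12 went the other way, at 15.8 CPM against 11.3 CPM in E6l2-Trp53-KO DMSO cells. Mpo averaged 67.5, 6.32, 1.00 and 19.5 CPM in clones 12, 7, 6 and 4, against 1898 CPM in E6l2-Trp53-KO DMSO and 2355 CPM in Trp53-KO DMSO cells. Elane and Cebpa were lowest in clone 6, at 0.116 and 0.216 CPM, against 31.0 and 207 CPM in Trp53-KO DMSO cells, so 6 of the 8 stood over 1 CPM there and 8 in the other clones. Cytosolic ribosomal protein genes held 5.80% to 7.65% of counts in the 4 clones (group means), against 14.03% in E6l2-Trp53-KO DMSO and 14.7% in Trp53-KO DMSO cells. Their part in the clone results was not tested.

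**Figure D4:**
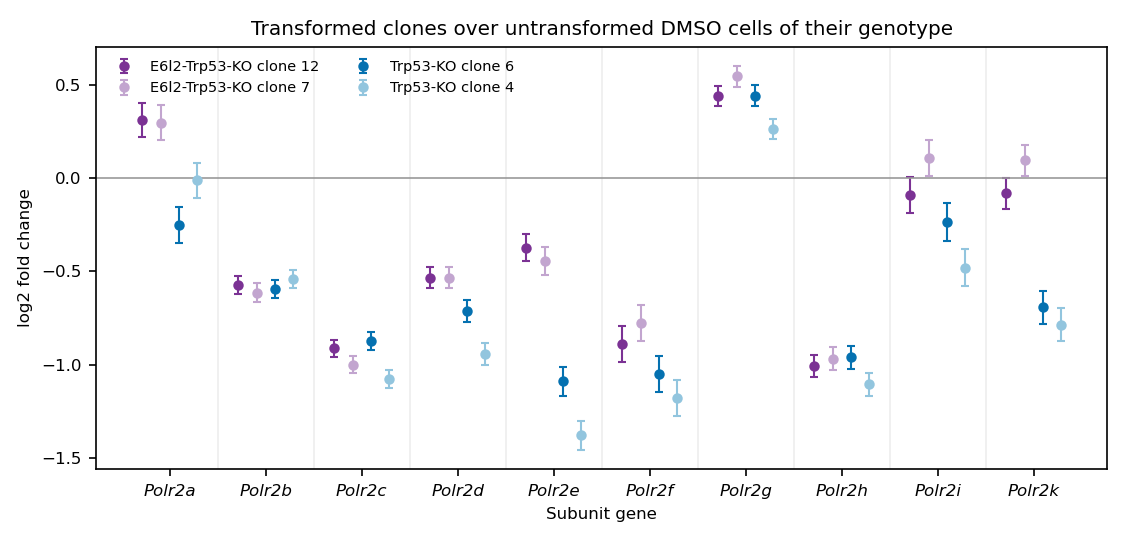
Log2 fold change of each subunit gene in 4 transformed clones over DMSO cells of their genotype (3 libraries a group; bars are ± 1 SE of the edgeR fit). Polr2g was above 0 in all 4, between 0.26 and 0.54, Polr2b, Polr2c, Polr2d, Polr2e, Polr2f and Polr2h were below 0 in all 4, and Polr2a stayed between -0.25 and 0.31.

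Across the 16 group means, the smaller subunit genes apart from Polr2g followed one another and Polr2a did not follow them. Pearson correlations of Polr2a with the other 9 were between -0.27 (Polr2c) and -0.64 (Polr2i) over 16 groups, and between -0.49 (Polr2b) and -0.91 (Polr2g, Polr2i) over the 12 untransformed groups. The median correlation of a smaller subunit gene with the other 8 was between 0.65 and 0.88 over 16 groups, with Polr2g apart at -0.35. Over the 12 untransformed groups it was between 0.43 (Polr2e) and 0.81 (Polr2f), with Polr2b at 0.46, Polr2c at 0.52, Polr2d at 0.53 and Polr2g at 0.73. The groups share scaling and cell line, and the 2 low etoposide groups weigh heavily in the values of Polr2a.

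Among 7223 genes with at least 20 CPM on average, the 8 whose group means were most like those of Polr2a (Pearson, 16 groups) had correlations of 0.84 to 0.90 and included Ttc14, Kmt2a, Ash1l, Prpf39, Srrm2, Kmt2b and Amn1. Kmt2a, Kmt2b and Ash1l are histone methyltransferases, and Srrm2 and Prpf39 are splicing proteins. Ranked by Spearman correlation, 4 of the 8 were again in the first 8. The Spearman correlation was only 0.30 for Ttc14 and 0.46 for Ash1l, and 0.55 (Amn1) to 0.78 (Kmt2b) for the others named. Those most like the geometric mean of the other 9 were Prdx2, Mrpl13, Ndufs3, Stmn1, Uba1, Rbm8a, Mydgf and Mrpl40, at 0.98 to 0.99, among them mitochondrial ribosome (Mrpl13, Mrpl40) and respiratory chain (Ndufs3) genes; 1 of the 8 was kept by Spearman ranking.

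The counting limits some members. The kit, TruSeq RNA V2, and the deposited files state no strand setting, and 5 members overlap a gene on the opposite strand: by 26.8% of exonic bases for Polr2i (Tbcb), 18.1% for Polr2c (Dok4), 9.44% for Polr2f (1700088E04Rik), 5.43% for Polr2h (Clcn2) and 1.82% for Polr2b (Igfbp7). Without strand, reads of such partners cannot be told apart. Polr2c and Polr2f had values that were not whole numbers in 97.9% and 100% of libraries, so the deposited counts are estimates there.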

How the data were processed

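The deposited table held expected counts per gene for 48 libraries, made by the authors; 71.5% of values lay within 0.01 of a whole number. Per the series' design text, libraries were made with TruSeq RNA V2, sequenced on a NovaSeq instrument and processed with the SUSHI pipeline; aligner, counter, genome build and strand setting are unknown here. Values were rounded, and CPM used TMM factors over all 48 libraries. Contrasts were tested with edgeR 4.0.16 (quasi-likelihood, R 4.3.3, limma 3.58.1) on 14011 genes in 36 untransformed libraries (24 residual degrees of freedom) and 14403 genes in 18 libraries of the clones and their DMSO controls (12), after edgeR's low-count filter, with Benjamini-Hochberg adjustment over all genes and a threshold of 0.05. On simulated data of 13938 genes, all of the 100 genes changed 1.5-fold were recovered (100%), with 8 false calls. The changed genes were drawn from highly counted ones, and most genes were left unchanged. No trend with length or GC was simulated, and changes under 1.5-fold were not covered. Alternatives were DESeq2 1.42.0, RLE and within-fit TMM scaling, no low-count filter, the contrast's groups alone, a length and GC offset, a replicate block, and leaving out each library. Of the gene IDs, 25424 (99.6%) matched GENCODE M21. The closest pair of libraries within a group differed by a chi-square of 2.40 per degree of freedom, above sampling noise.

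Members and gene lists were chosen with earlier results of these data known. The members are always named; from a list, up to 3 called genes with the largest absolute log2 change; and 8 genes most like Polr2a, or like the other 9, without predicted models and pseudogenes. One gene that this rule names is not reported here.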

Additional observations from a re-analysis of the deposited data

Results flagged for a closer look

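The response to etoposide differed between Trp53-KO and wildtype cells for 8 of the 10 subunit genes, by the interaction test of edgeR. The difference, Trp53-KO minus wildtype on the log2 scale, was 1.36 for Polr2a. It was -0.59 for Polr2f, -0.59 for Polr2i and -0.36 for Polr2k. It was -0.32 for Polr2e, -0.31 for Polr2c, -0.31 for Polr2h and -0.27 for Polr2g. Under the length and GC offset the difference for Polr2a was 1.45 (edgeR adjusted p = 2.25e-07), while those for Polr2e, Polr2g and Polr2h were -0.02, -0.07 and -0.01 and were not called.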

How the results depend on the processing

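Of 2450 alternative values for the 170 tested results of single subunit genes, 2355 kept direction and side of the threshold, 52 lost a call, 43 gained one and 0 reversed a call. Polr2a kept its fall with etoposide in wildtype cells under every alternative run, and a replicate block left it at -1.36 (edgeR adjusted p = 5.54e-11). Replicate numbers paired few groups: 3 of 28 pairs of groups had every same-number correlation above 0.1 (range -0.40 to 0.60), and the block changed no call of Polr2a or count for the smaller genes by over 1.5 times. The cause was not tested for any of the following. Under the length and GC offset, smaller subunit genes called numbered 5 for etoposide in wildtype cells, 3 for HCD in wildtype cells, 2 for E6l2-Trp53-KO against wildtype DMSO, 1 for E6l2-Trp53-KO against Trp53-KO DMSO and 4 for the Trp53-KO minus wildtype response to etoposide. Polr2a at HCD in wildtype cells was then -0.28 and called, and the untested E6l2-KO HCD values turned to -0.0468 for Polr2c and -0.0508 for Polr2e. Within-fit TMM gave 4 for that response and, like RLE, 5 for HCD in E6l2-Trp53-KO cells. With the contrast's groups alone, Polr2a was 0.49 and not called (0 smaller genes) for etoposide in E6l2-Trp53-KO cells. It was called at -0.17 for HCD in wildtype cells and at -0.24 for Trp53-KO against wildtype DMSO (1 smaller gene), and 2 smaller genes were called for E6l2-Trp53-KO against wildtype DMSO. With no filter, Polr2a was called at -0.24 for Trp53-KO against wildtype DMSO (1 smaller gene) and at 0.49 for the E6l2-Trp53-KO minus Trp53-KO response to etoposide (1 smaller gene).

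Leaving out 1 library moved Polr2a between 0.22 and 0.44 for HCD in E6l2-Trp53-KO cells, -0.43 and -0.31 for E6l2-Trp53-KO against wildtype DMSO, 0.31 and 0.59 for the E6l2-Trp53-KO minus Trp53-KO response, -0.33 and -0.19 in clone 6 and 0.16 and 0.37 in clone 7. Called smaller genes ranged over 0 to 4 for etoposide in E6l2-Trp53-KO cells, 3 to 5 for HCD in wildtype cells, 0 to 1 for Trp53-KO against wildtype DMSO and 0 to 1 for the E6l2-Trp53-KO minus Trp53-KO response. With 3 libraries a group, precision rests on the spread between libraries more than on depth.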
